A study of Mus musculus with 12 samples.

Results

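Triglyceride synthesis is described here through 10 genes of mouse liver: the monoacylglycerol acyltransferases Mogat1 and Mogat2, the glycerol-3-phosphate acyltransferase Gpam, the lysophosphatidic acid acyltransferases Agpat2 and Agpat3, the lipins Lpin1, Lpin2 and Lpin3, and the diacylglycerol acyltransferases Dgat1 and Dgat2. They were taken by symbol from the 24787 genes of the count tables, and all 10 were found. Of these, 9 had enough counts to be tested, among 14172 tested genes. Mogat2 did not, and is given by its counts.

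RNA was sequenced from liver of C57Bl/6 mice in 12 libraries, 4 per group. The ND group ate a normal diet. The HFD group ate a high-fat diet and, after 2 months, was assigned at random to daily intraperitoneal vehicle. The HFD+MEC1 group came from the same high-fat-fed mice and received 0.5 mg/kg of MEC1, a compound known here by its code name, by the same route each day. The study used this diet as a chronic disease setting for MEC1. The labels give neither sex, age nor length of dosing, and do not say whether ND mice were injected or whether each library is a separate mouse, so p-values measure only the spread between these libraries, which may be technical in part. HFD minus ND therefore compares diet together with any injection, and HFD+MEC1 minus HFD is the randomised comparison.

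Triglyceride is built in the liver mainly from glycerol 3-phosphate. A GPAT adds an acyl chain to give lysophosphatidic acid, an AGPAT adds another to give phosphatidic acid, a lipin removes the phosphate to give diacylglycerol, and a DGAT adds the last acyl chain. A MOGAT makes diacylglycerol by a separate route, from monoacylglycerol, a route best known from the absorptive cells of the intestine. Diacylglycerol and phosphatidic acid are also the starting points of membrane phospholipids.

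Libraries held 39916405 to 51340317 counts. Levels are given as CPM, the count of a gene relative to its library total after scaling by TMM factors. A difference is a log2 fold change with its SE from edgeR's quasi-likelihood test, and a gene was called where the Benjamini-Hochberg adjusted p over all tested genes was under 0.05. In a principal component analysis of all tested genes, HFD+MEC1 replicate 3 lay farthest from the rest on the second component, at -55.9 against -26.7 to 24.6 in the other 11. Without it, calls over all tested genes in HFD+MEC1 minus HFD went from 4 to 0. The drop was not particular to this library. Calls also went to 0 without ND replicate 1 or 4, HFD replicate 1 or 3, or HFD+MEC1 replicate 2 or 4. They went to 460 without HFD+MEC1 replicate 1. Calls of the 10 genes that were lost without HFD+MEC1 replicate 3 are given both ways. Summed hepatocyte markers were 89431 to 103967 CPM in ND, 86986 to 99820 in HFD and 70346 to 94929 in HFD+MEC1, most of it Alb. Within that list Cps1, a urea cycle enzyme, was 4041 to 4542 CPM in ND, above its 1420 to 2653 in HFD and 1143 to 2398 in HFD+MEC1, and Tat was 1436 to 2637, 743 to 1590 and 620 to 1266. Serpina1a was 9844 to 11619, 8095 to 9415 and 8837 to 11581 CPM in the same order. The rest of the list overlapped between all groups. Alb was 62477 to 75578, 64968 to 75428 and 50695 to 70762 CPM. Ttr was 3357 to 3860, 3759 to 4940 and 2791 to 3892, and Apoa1 6470 to 7145, 5287 to 7994 and 5677 to 8442. In bulk liver, fewer cells of a type and less RNA per cell cannot be told apart.

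On the high-fat diet, Mogat1, Agpat3 and Lpin2 were called higher and no tested gene of the set was called lower. These 3 of 9 compare with 6.30% of all tested genes called in HFD minus ND, 3.35% higher and 2.95% lower. The genes were chosen with earlier results of these data known, so such shares are a description only. The groups did not overlap for 4 of the 9 (Mogat1, Agpat3, Lpin1 and Lpin2), against 14.3% of all tested genes. The median log2 fold change of the 9 was 0.14, and that of all tested genes was 0. With MEC1 on the high-fat diet, 0 of the 9 were called by edgeR's quasi-likelihood test, where 0.0282% of all tested genes (4 genes) were. Mogat1 and Gpam had an unadjusted p under 0.05, which makes 2 of 9, where 14.8% of all tested genes did. DESeq2 called 1 of the 9, Gpam, and limma-voom 0, against 389 and 2 of all 14172 tested genes. Gpam was also the 1 gene of the 9 whose HFD+MEC1 and HFD libraries did not overlap in CPM, against 7.11% of all tested genes. In the deposited RPKM its libraries did overlap. The median of the 9 was -0.13, beside 0.01 for all tested genes.

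In HFD+MEC1 minus ND, Agpat3 was higher and Gpam lower, 2 of 9 against 4.54% of all tested genes, 2.15% higher and 2.40% lower. The median of the 9 was 0.07 beside 0 for all tested genes. This comparison shares the ND libraries with HFD minus ND and the treated libraries with HFD+MEC1 minus HFD, so the 3 sets of values are not independent.

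**Figure D1:**
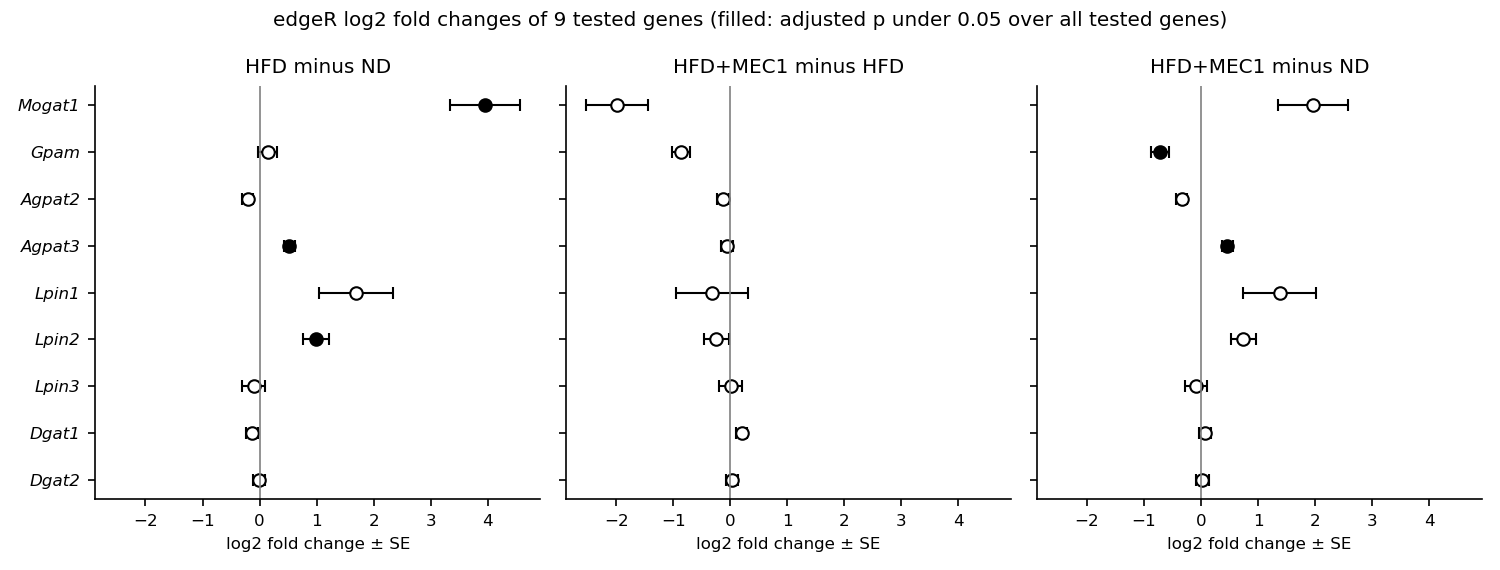
Log2 fold change of the 9 tested genes in the 3 comparisons, with bars of 1 SE from the edgeR quasi-likelihood fit to 12 libraries; filled points are called at an adjusted p under 0.05. Mogat1 in HFD minus ND stands farthest from 0, at 3.95 ± 0.62, and Dgat2 lies between -0.01 and 0.03 in all 3 comparisons.

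The promoter windows below are shown for the genes with the largest differences in any comparison, so that their letters can be read beside the levels. They are RefSeq sequences of build GRCm38.p6, upstream of an annotated start, on the strand of the gene and without annotated exons. A window was found for 7 of the 10 genes. Capitals mark matches to 10 motifs searched on both strands. The motifs were the E-box CACGTG, present in 6.02% of 32851 promoters, the sterol response element TCACNCCAC (1.05%), the nuclear receptor hexamer AGGTCA (14.0%) with its direct repeats DR1 (0.0335%) and DR4 (0.0152%), which contain it, the CCAAT box CCAAT (33.8%), the GC box GGGCGG (32.7%), the TATA box TATAAA (12.4%), the cyclic AMP response element TGACGTCA (1.55%) and the palindromic glucocorticoid response element (0.00913%).
Mogat1: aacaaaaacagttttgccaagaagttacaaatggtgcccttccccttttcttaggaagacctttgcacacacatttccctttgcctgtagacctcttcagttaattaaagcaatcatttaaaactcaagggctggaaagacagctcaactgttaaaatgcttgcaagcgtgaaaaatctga
Gpam: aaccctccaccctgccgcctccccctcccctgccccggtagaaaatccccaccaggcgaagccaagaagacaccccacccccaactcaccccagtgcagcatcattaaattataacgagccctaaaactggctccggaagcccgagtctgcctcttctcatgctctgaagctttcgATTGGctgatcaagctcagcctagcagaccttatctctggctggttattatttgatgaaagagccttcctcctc
Lpin1: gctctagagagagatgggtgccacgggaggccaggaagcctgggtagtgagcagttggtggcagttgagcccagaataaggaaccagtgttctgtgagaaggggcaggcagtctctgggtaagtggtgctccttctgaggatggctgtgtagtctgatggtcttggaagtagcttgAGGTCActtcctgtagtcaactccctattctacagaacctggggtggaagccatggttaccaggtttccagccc
Lpin2: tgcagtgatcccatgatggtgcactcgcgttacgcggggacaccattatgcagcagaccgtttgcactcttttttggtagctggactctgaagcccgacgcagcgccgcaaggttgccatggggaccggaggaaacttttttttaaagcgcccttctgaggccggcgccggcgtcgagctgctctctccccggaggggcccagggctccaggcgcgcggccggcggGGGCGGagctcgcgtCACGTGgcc

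The Mogat1 window, chr1:78510810-78510990 on the plus strand, runs from -250 to -70 and holds none of the 10 motifs. The first Gpam start, chr19:55127239-55127488 on the minus strand, has a CCAAT box at -74 to -70, printed as its reverse complement ATTGG. In Lpin1, chr12:16610967-16611216 on the minus strand, the hexamer AGGTCA lies at -74 to -69. The first Lpin2 start, chr17:71183282-71183531 on the plus strand, has a GC box at -24 to -19 and an E-box at -9 to -4. This window lies within the annotated gene, which begins at 71182560. Other starts are not printed. Gpam start 2 has AGGTCA at -196 to -191 and a GC box at -16 to -11. Lpin2 start 2 has a GC box at -79 to -74, and Lpin2 start 3 has CCAAT boxes at -233 to -229, -165 to -161 and -57 to -53. A match describes the letters only, and a missing match says only that these letters are not in the window.

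Mogat1, which adds an acyl chain to monoacylglycerol, had the largest difference of the 9 in HFD minus ND. It lies on chromosome 1 from 78510991 to 78538173, plus strand (GENCODE M21, GRCm38), and 12.8% of its exonic bases overlap BC035947 on the other strand, so that reads of the pair cannot be told apart where strand was not used. In ND replicates 1 to 4 it had 0.271, 0.330, 0.773 and 0.0414 CPM, from 12, 14, 32 and 2 counts. In HFD it had 4.96, 5.95, 8.72 and 1.99 CPM, from 216, 276, 440 and 90 counts. In HFD+MEC1 it had 2.01, 0.786, 1.44 and 1.22 CPM, from 95, 40, 56 and 53 counts. Every HFD library was above every ND library, and every HFD+MEC1 library was above every ND library too, but HFD replicate 4 lay just under HFD+MEC1 replicate 1.

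Mogat1 rose by 3.95 ± 0.62 (log2, SE) in HFD minus ND (edgeR adjusted p = 0.00344), from 0.354 ± 0.306 to 5.40 ± 2.78 CPM (SD, n = 4 each). That call held when each of the 8 libraries was left out in turn, with values of 3.56 to 4.66. On the log2(RPKM + 1) scale, which understates the change of low genes, the difference was 1.83. In HFD+MEC1 the mean was 1.36 ± 0.511 CPM (SD, n = 4). HFD+MEC1 minus HFD was -1.99 ± 0.54 with an edgeR adjusted p of 0.139, and was -1.19 on the log2(RPKM + 1) scale. HFD+MEC1 minus ND was 1.96 ± 0.62 (edgeR adjusted p = 0.0984), or 0.64 on the log2(RPKM + 1) scale; without ND replicate 3, the highest of its group, it was 2.68 with an adjusted p of 0.0324, and without single others of the 8 libraries it was not called (adjusted p up to 0.229). DESeq2 called it (0.0471), and limma-voom did not (0.257).

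Mogat2, the isozyme best known from intestine, was near the limit of detection. Its 4 ND libraries held 0, 12, 8 and 17 counts, the HFD libraries 0, 0, 6 and 8, and the HFD+MEC1 libraries 0, 0, 6 and 0. A library with 0 counts allows up to 3 counts, or 0.0590 to 0.0770 CPM, by counting error alone if counts are independent. The limit is higher if counts are read ends that come in pairs. Mogat2 lies on chromosome 7 from 99219084 to 99238619, minus strand. Mogat1 and Mogat2 were 59.1% identical over 1000 aligned coding bases, and 61.2% identical each to Dgat2, which belongs to the same protein family. These values are no higher than the 63.5% over 1056 aligned bases of Dgat1 and Dgat2, which are of different families, so they show no likeness beyond what such an alignment gives.

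Markers of other tissues in which these enzymes are abundant were checked in the same libraries. The enterocyte markers Sis, Alpi, Cdx1 and Cdx2 were at 0 in all 12 libraries, 4 of the 7 on the list. The summed list was 28.3 to 41.6 CPM in ND, 121 to 141 in HFD and 53.2 to 125 in HFD+MEC1, of which Fabp2 made 27.7 to 41.5, 121 to 141 and 53.2 to 125. Of 7 adipocyte markers, Lep and Plin1 were at 0 in all 12 libraries and Adipoq was at most 0.0967 CPM. The summed adipocyte list was 33.3 to 43.7 CPM in ND, 24.4 to 46.8 in HFD and 26.4 to 35.2 in HFD+MEC1. Its members did not move together. Cfd ranged from 0.0414 to 1.16, 2.43 to 14.2 and 0.157 to 13.3 CPM in the same order. Lpl, most of the sum in ND, was 29.2 to 40.6, 16.7 to 31.5 and 19.5 to 23.9 CPM. Adrb3 was 2.01 to 4.26, 0.991 to 2.91 and 2.12 to 4.59 CPM. Summed markers of macrophages, 7 genes with none at 0 throughout, were 190 to 278, 244 to 377 and 275 to 385 CPM. Endothelial markers summed to 131 to 200, 174 to 225 and 202 to 237 CPM, so that the sums of ND and HFD+MEC1 did not overlap. Of that list Stab2 and Clec4g did not overlap between these groups, while Pecam1, Kdr and Lyve1 did. Cholangiocyte markers summed to 60.6 to 90.3, 39.6 to 59.3 and 36.9 to 89.9 CPM, so that the sums of ND and HFD did not overlap. Each of the 5 single genes did overlap between ND and HFD. Most of the sum was Spp1, at 46.0 to 70.2 CPM in ND and 29.3 to 50.1 in HFD. The 5 genes of each list were above 0 in some library. The part of these cells in the differences above was not tested.

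**Figure D2:**
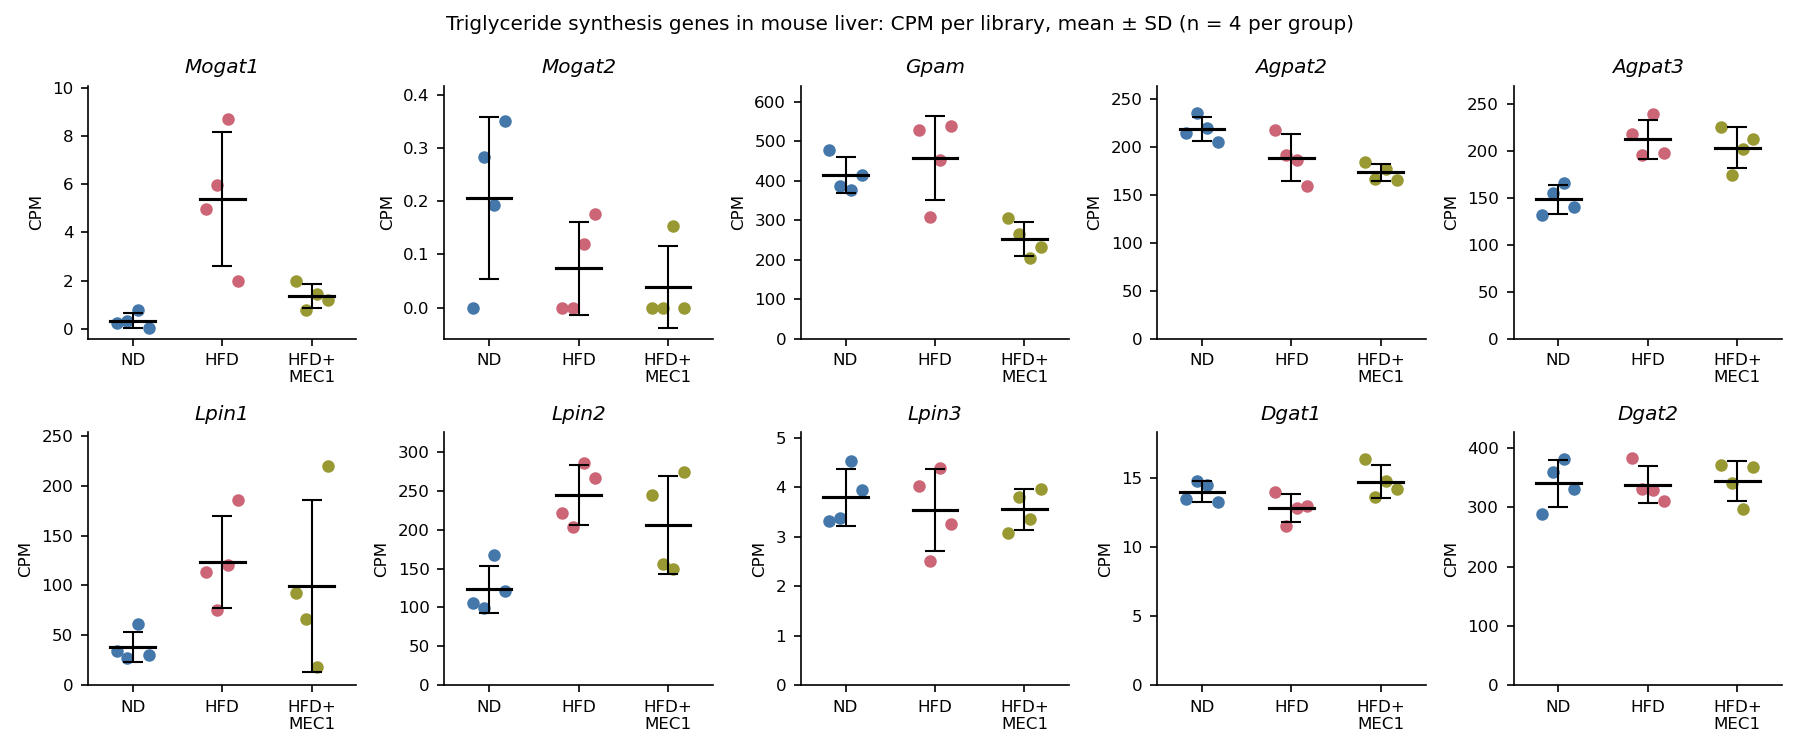
CPM of the 10 genes in each library (points), with the mean (line) and SD (bars) of 4 libraries per group; each panel has its own linear axis. Gpam in HFD+MEC1 (205 to 305 CPM) lies under all HFD libraries (308 to 540), though not in RPKM, and Lpin1 in HFD+MEC1 spreads from 18.1 to 220.

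Gpam encodes the mitochondrial GPAT that starts the glycerol 3-phosphate route, and lies on chromosome 19 from 55067268 to 55127238, minus strand. ND replicates 1 to 4 had 479, 388, 377 and 415 CPM. HFD replicates had 529, 308, 453 and 540 CPM, and HFD+MEC1 replicates 305, 264, 205 and 233 CPM. The diet groups overlapped, while all 4 HFD+MEC1 libraries were below all ND and all HFD libraries in CPM. The nearest pair was HFD replicate 2 at 308 and HFD+MEC1 replicate 1 at 305. In the deposited RPKM this pair was reversed, at 37.7 and 41.3, so HFD and HFD+MEC1 overlapped on that scale.

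Between diets Gpam differed by 0.14 ± 0.16, with a 95% interval of -0.20 to 0.49 (edgeR adjusted p = 0.681). HFD+MEC1 minus HFD was -0.86 ± 0.16 (edgeR adjusted p = 0.0632), from 458 ± 107 to 252 ± 42.6 CPM (SD, n = 4 each), just short of the threshold. Leaving out HFD replicate 2 gave -1.01 with an adjusted p of 0.0110, and leaving out HFD+MEC1 replicate 1 gave -0.97 with 0.0114. Without each of the other 6 libraries it was not called, with adjusted p up to 0.198 (without HFD replicate 3). The same difference passed with DESeq2 (adjusted p = 0.000212) and with no filter on low counts (0.0478). It did not pass with limma-voom (0.0706), library totals (0.0843), either RPKM scale (0.114 and 0.122) or only the HFD and HFD+MEC1 libraries (0.139). In HFD+MEC1 minus ND, Gpam fell by 0.72 ± 0.16 on the log2 scale (edgeR adjusted p = 0.0191). That call was lost without ND replicate 1 (adjusted p = 0.0691), ND replicate 4 (0.0557), HFD+MEC1 replicate 3 (0.0544) or HFD+MEC1 replicate 4 (0.0601), with values between -0.82 and -0.63 over the 8 left-out libraries. It was also lost with library totals in place of TMM factors (0.0566) and with limma on either RPKM scale (0.0623 and 0.0662).

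The other GPAT of appreciable level was Gpat4, an enzyme of the endoplasmic reticulum. It was 130 to 156 CPM in ND, 103 to 120 in HFD and 90.5 to 118 in HFD+MEC1. Gpat4 fell in HFD+MEC1 minus ND by 0.43 ± 0.10 (edgeR adjusted p = 0.0197), a call lost without ND replicate 2, HFD+MEC1 replicate 2 or HFD+MEC1 replicate 3 (highest adjusted p 0.0670), and HFD minus ND was -0.32 ± 0.10 (0.0666). Of the deposited RPKM summed over the GPAT genes, Gpam made 63.8 ± 3.89% in ND, 69.6 ± 5.82% in HFD and 58.1 ± 3.58% in HFD+MEC1 (SD, n = 4 each). The summed GPAT RPKM was 76.6 ± 3.58 in ND, 82.3 ± 14.3 in HFD and 54.3 ± 10.1 in HFD+MEC1.

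At the AGPAT step, Agpat3 was higher on the high-fat diet and Agpat2 was not called by edgeR in any comparison. Agpat3, on chromosome 10 from 78269178 to 78352489, minus strand, had 132, 155, 166 and 140 CPM in ND. It had 218, 195, 239 and 197 CPM in HFD, and 225, 174, 202 and 212 CPM in HFD+MEC1. All 8 libraries of the high-fat diet were above all 4 ND libraries, and the HFD and HFD+MEC1 libraries overlapped.

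Agpat3 rose by 0.52 ± 0.10 in HFD minus ND (edgeR adjusted p = 0.0083), a call that held without each of the 8 libraries. It rose by 0.46 ± 0.10 in HFD+MEC1 minus ND (edgeR adjusted p = 0.0198), a call lost without ND replicate 1 (0.0722), ND replicate 4 (0.0696) or HFD+MEC1 replicate 4 (0.0538). HFD+MEC1 minus HFD was -0.06 ± 0.10, with an interval of -0.28 to 0.16.

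Agpat2, the AGPAT whose loss causes lipodystrophy, lies on chromosome 2 from 26593057 to 26604417, minus strand, and 3.0% of its exonic bases overlap Egfl7 on the other strand. It had 215, 236, 220 and 205 CPM in ND, then 218, 192, 187 and 159 in HFD and 184, 167, 177 and 166 in HFD+MEC1. All HFD+MEC1 libraries were below all ND libraries, but the difference of -0.34 ± 0.10 was not called (edgeR adjusted p = 0.0575, and 0.0572 to 0.144 without single libraries). DESeq2 called it (0.0156), and limma-voom did not (0.0560). HFD minus ND was -0.21 ± 0.10 (0.224) and HFD+MEC1 minus HFD -0.13 ± 0.10 (0.586). As a share of summed AGPAT RPKM, Agpat3 made 21.3 to 24.7% in ND, 30.3 to 35.8% in HFD and 31.2 to 35.9% in HFD+MEC1, and Agpat2 made 73.7 ± 1.65%, 63.8 ± 2.84% and 62.9 ± 1.80% in the same order (SD, n = 4 each). The summed AGPAT RPKM was 143 ± 8.97, 152 ± 19.2 and 140 ± 16.2.

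**Figure D3:**
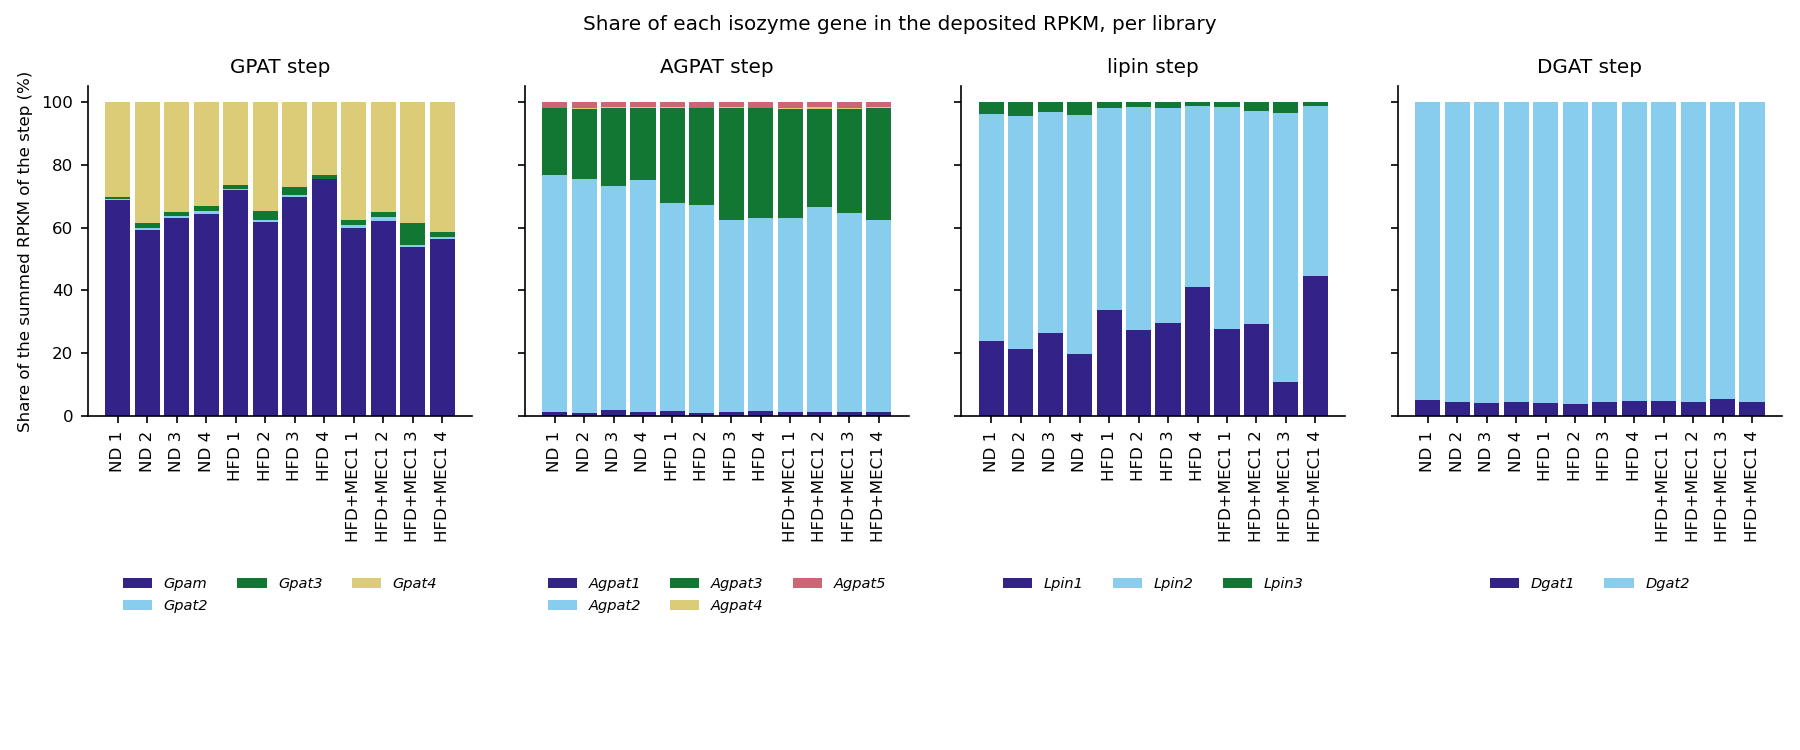
Share of each gene (percent, stacked bars) in the deposited RPKM summed over the genes of a step, for each of the 12 libraries. Agpat3 takes 21.3 to 24.7% of the AGPAT step in ND and 30.3 to 35.9% in the 8 high-fat libraries, and Dgat2 takes 94.6 to 96.1% of the DGAT step throughout.

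Lipins are the phosphatidic acid phosphatases of the pathway, and lipin 1 also acts in the nucleus as a transcriptional coactivator. Lpin2, on chromosome 17 from 71182560 to 71249817, plus strand, had 106, 99.5, 167 and 121 CPM in ND. HFD libraries had 221, 203, 286 and 267 CPM, and HFD+MEC1 libraries 245, 156, 149 and 274. ND and HFD did not overlap, whereas 2 of the 4 HFD+MEC1 libraries, replicates 2 and 3, fell within the ND range.

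Lpin2 rose by 0.99 ± 0.22 in HFD minus ND (edgeR adjusted p = 0.0204). The call was lost without ND replicate 1 (0.0630), ND replicate 2 (0.0521), ND replicate 4 (0.0630) or HFD replicate 3 (0.0695). HFD+MEC1 minus HFD was -0.25 ± 0.22 (0.656), and -0.11 without HFD+MEC1 replicate 3 (0.905). HFD+MEC1 minus ND was 0.74 ± 0.22 (0.0802), and 0.92 with an adjusted p of 0.0289 without ND replicate 3. Without single others of the 8 libraries it was not called (up to 0.195). DESeq2 called it (0.00739), and limma-voom did not (0.0911).

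Lpin1, on chromosome 12 from 16535669 to 16610966, minus strand, was the most variable of the abundant genes. It had 33.9, 27.6, 60.8 and 30.5 CPM in ND and 113, 75.5, 120 and 186 CPM in HFD, with no overlap. In HFD+MEC1 it had 92.6, 66.0, 18.1 and 220 CPM, so that replicate 3 was the lowest of all 12 libraries and replicate 4 the highest. HFD minus ND was 1.69 ± 0.65 with an edgeR adjusted p of 0.175 in the fit of all 3 groups, whose shared spread includes the HFD+MEC1 libraries, and 0.0376 with ND and HFD alone. In the other 8 settings tried it was 0.0506 (DESeq2) to 0.245, and without single libraries 0.173 to 0.335. HFD+MEC1 minus HFD was -0.32 ± 0.63 (0.864), and 0.03 without HFD+MEC1 replicate 3. HFD+MEC1 minus ND was 1.38 ± 0.64 (0.288), and 1.73 without that library (0.113). Without HFD+MEC1 replicate 4, the highest library, the 2 differences were -1.06 (0.445) and 0.63 (0.630).

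Lpin3, on chromosome 2 from 160880670 to 160906002, plus strand, was the lowest lipin. Its 12 libraries ran from 2.50 to 4.54 CPM with all groups overlapping, and its difference was -0.10 between diets, 0.01 between treated and vehicle libraries, and -0.09 between treated and ND libraries. The summed lipin RPKM was 21.2 ± 6.58 in ND, 50.2 ± 11.1 in HFD and 41.3 ± 18.8 in HFD+MEC1 (SD, n = 4 each). Lpin1 made 22.8 ± 2.93% of it in ND and 33.0 ± 6.13% in HFD, and 10.7 to 44.7% in HFD+MEC1. Coding sequences of the 3 lipins were 67.5 to 68.1% identical in pairs, beside 63.5% for Dgat1 and Dgat2, of different families, in the same kind of alignment.

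Dgat1 and Dgat2 catalyse the last step and are unrelated proteins. Dgat2, on chromosome 7 from 99153658 to 99182719, minus strand, had 289, 360, 382 and 331 CPM in ND, 383, 331, 330 and 310 in HFD, and 371, 341, 298 and 368 in HFD+MEC1. The groups overlapped throughout. Its differences for diet, for MEC1 against vehicle and for HFD+MEC1 minus ND were -0.01 ± 0.11, 0.03 ± 0.11 and 0.02 ± 0.11, with 95% intervals of -0.24 to 0.23, -0.21 to 0.26 and -0.22 to 0.25.

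Dgat1, on chromosome 15 from 76502015 to 76511953, minus strand, had 13.5, 14.8, 14.5 and 13.3 CPM in ND. HFD libraries had 14.0, 11.5, 12.8 and 13 CPM, and HFD+MEC1 libraries 16.4, 13.6, 14.8 and 14.2. HFD minus ND was -0.13 ± 0.10 and HFD+MEC1 minus HFD 0.20 ± 0.10, with an interval of -0.01 to 0.41, and neither was called. Its spread within groups was small, with a coefficient of variation of 5.36 to 8.29%, against 37.1 to 87.0% for Lpin1.

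Ordered by deposited RPKM, which is scaled by gene length, the mean level over 12 libraries was highest for Dgat2 at 120, then Agpat2 at 96.8, Gpam at 46.2, Agpat3 at 43.4, Lpin2 at 25.1, Lpin1 at 11.7, Dgat1 at 5.62, Mogat1 at 1.60, Lpin3 at 0.811 and Mogat2 at 0.0467. In ND, the ranges of Dgat2 (95.8 to 134) and Agpat2 (100 to 110) overlapped, as did those of Dgat1 (5.17 to 5.86) and Lpin1 (3.37 to 8.08). The order differed between groups at 3 places. Lpin1 stood above Dgat1 in HFD (9.99 to 24.6 against 4.64 to 5.79), Mogat1 stood above Lpin3 there (1.28 to 6.20 against 0.554 to 1.07), and Agpat3 (39.8 to 56.8) stood above Gpam (25.2 to 41.3) in HFD+MEC1, with ranges that overlapped. In HFD+MEC1 the mean of Lpin1 was also above that of Dgat1 (13.3 and 6.09) and that of Mogat1 above Lpin3 (0.912 and 0.802), with overlapping ranges.

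Across the 12 libraries, some members varied together. Pearson's r of log2 CPM was 0.88 for Lpin1 with Lpin2, 0.88 for Agpat3 with Lpin2 and 0.87 for Agpat3 with Mogat1. With group means removed these were 0.82, 0.64 and 0.68, while Lpin2 with Mogat1 went from 0.78 to 0.27. Gpam with Mogat1 had an r of 0, and -0.25 with group means removed. The libraries share 3 groups, so these values are a description.

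**Figure D4:**
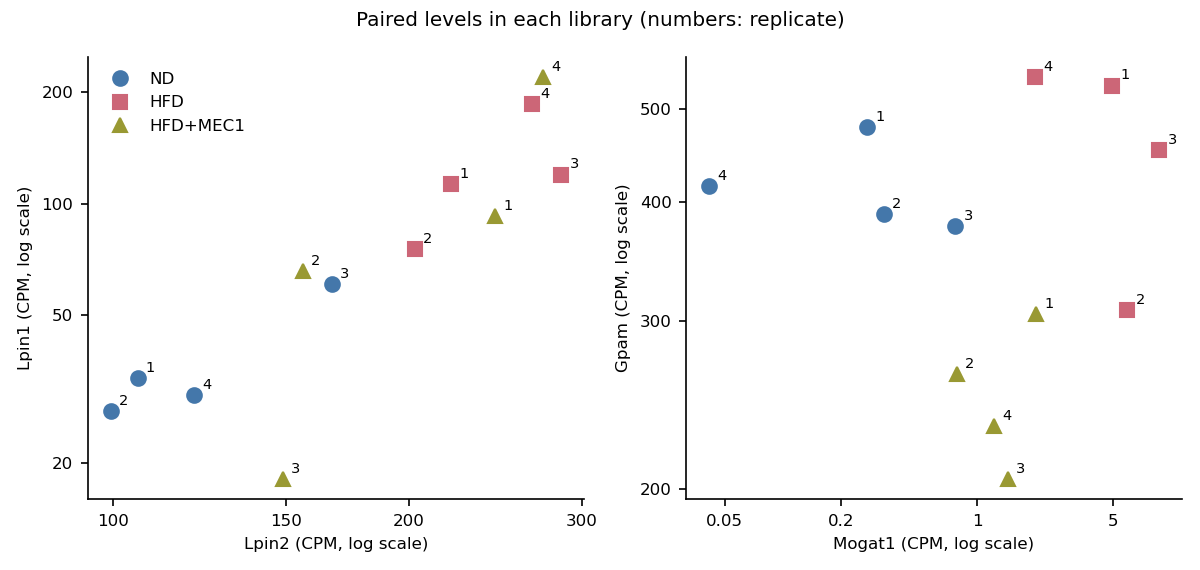
CPM of Lpin1 against Lpin2 (left) and of Gpam against Mogat1 (right) in the 12 libraries, on log axes, with symbols by group and numbers for replicates. Lpin1 and Lpin2 (r = 0.88) vary together, with HFD+MEC1 replicate 3 lowest for Lpin1 at 18.1 CPM, and Gpam and Mogat1 (r = 0) do not line up.

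The genes whose log2 CPM was most like each member's were also picked by r over the 12 libraries. For Gpam they were Fasn, which encodes fatty acid synthase (0.96, and 0.89 with group means removed), and Rnf103 (0.94). For Mogat1 they were Slx4ip (0.97) and Sema5b (0.96), for Agpat3 Ackr4 (0.97) and Vwa8 (0.97), and for Lpin2 Rgs16 (0.97) and Plekhf1 (0.94). Lpin1 was most like Fam174b (0.91) and Fam185a (0.91), Agpat2 like Slc25a17 (0.91) and Tmem14c (0.90), and Dgat1 like Tti1 (0.89) and Zfp212 (0.87). Dgat2 (3110070M22Rik 0.87 and Cyp2d10 0.83) and Lpin3 (Man2b1 0.86 and Mpv17l2 0.85) had the lowest such values.

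Beyond the 10 genes, 21 other genes that supply or modify the pathway were all tested. Over all tested genes, 6.30% were called in HFD minus ND (3.35% higher, 2.95% lower) and 4.54% in HFD+MEC1 minus ND. In HFD minus ND, 3 were called higher and none lower. Gk, which makes glycerol 3-phosphate from glycerol, rose by 0.76 ± 0.14, from 96.4 ± 9.24 to 163 ± 17 CPM (edgeR adjusted p = 0.00621). Slc27a2, a fatty acid transporter and acyl-CoA synthetase, rose by 0.45 ± 0.12 (0.0294), and Lclat1, a lysophospholipid acyltransferase, by 0.29 ± 0.08 (0.0350). The Gk call held without each of the 8 libraries. That of Slc27a2 held only without HFD replicate 1 (highest adjusted p 0.0973 without any of the other 7), and that of Lclat1 only without ND replicate 2 (highest 0.109). The 11.2% of Slc27a2 exonic bases that overlap an antisense gene cannot be told apart where strand was not used. For the treated against the vehicle libraries, DESeq2 called 1 of the 21 (Acsl5) and limma-voom 0, against 389 and 2 of all 14172 tested genes. By edgeR 0 of 21 were called, and 2 had an unadjusted p under 0.05, where 14.8% of all tested genes did. Acsl5, an acyl-CoA synthetase, was -0.58 ± 0.15 (0.113) and Tmem68 -0.31 ± 0.14 (0.308). Slc27a2 rose by 0.66 ± 0.12 in HFD+MEC1 minus ND (0.00435), without each of the 8 libraries too, and Gpat4 fell as given above. Medians of the 21 were 0.02, -0.08 and -0.04, beside 0, 0.01 and 0 over all tested genes.

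Of 25 genes that lead from diacylglycerol and phosphatidic acid to phospholipids, 24 were tested. Their calls stand beside 6.30% of all tested genes in HFD minus ND and 4.54% in HFD+MEC1 minus ND. Etnk2, an ethanolamine kinase, fell by 0.67 ± 0.14 in HFD minus ND (edgeR adjusted p = 0.00908), 1 of 24, and without each of the 8 libraries too. Cds2, which makes CDP-diacylglycerol, fell by 0.38 ± 0.09 in HFD+MEC1 minus ND (0.0221), 1 of 24, a call lost without ND replicate 2 or 4 or HFD+MEC1 replicate 2 or 4 (highest adjusted p 0.0813). For the treated against the vehicle libraries edgeR and limma-voom called 0 and DESeq2 called 1 (Chpt1). Over all 14172 tested genes, edgeR called 4, limma-voom 2 and DESeq2 389. In edgeR 6 of the 24 had an unadjusted p under 0.05, beside 14.8% of all tested genes. Plpp2 was at 0.52 ± 0.16 (edgeR adjusted p = 0.164) and Chpt1 at -0.69 ± 0.21 (0.177). The list's medians were -0.02, -0.05 and -0.04.

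Of 9 genes of triglyceride hydrolysis, Mgll, which cleaves monoacylglycerol, rose by 1.08 ± 0.16 in HFD minus ND (edgeR adjusted p = 0.00165), from 126 ± 14.3 to 265 ± 39.7 CPM. Lipe, hormone-sensitive lipase, and Abhd5, the activator of adipose triglyceride lipase, fell by 0.64 ± 0.16 (0.0223) and 0.36 ± 0.10 (0.0345). The Mgll call held without each of the 8 libraries, while that of Lipe held without 3 of them (lost without ND replicate 2 or 4 or HFD replicate 1, 2 or 3, highest adjusted p 0.0730) and that of Abhd5 only without ND replicate 3 or HFD replicate 1 (highest 0.121). Antisense genes overlap 15.6% of Lipe and 16% of Abhd5 exonic bases. Pnpla3, a lipid-droplet protein, fell by 3.91 ± 0.61 in HFD+MEC1 minus HFD with an edgeR adjusted p of 0.0499, at the edge of the threshold. Its range was 0.561 to 4.01 CPM in HFD and 0.0786 to 0.183 CPM in HFD+MEC1. In the HFD+MEC1 libraries 3 counts make 0.0590 to 0.0770 CPM. Falls to levels so near the floor are uncertain in size. DESeq2 called Pnpla3 too and limma-voom did not. The edgeR call was lost without HFD replicate 1 or 3 or HFD+MEC1 replicate 2, 3 or 4 (highest adjusted p 0.151). In HFD+MEC1 minus ND, Mgll rose by 0.80 ± 0.16 (0.0107), and Pnpla3 (-2.38 ± 0.61, 0.0367) and Abhd5 (-0.51 ± 0.10, 0.00699) fell. Of these, the Mgll and Abhd5 calls held without each of the 8 libraries, and that of Pnpla3 held only without ND replicate 2 (highest adjusted p 0.105 without any of the other 7). Calls of the list compare with 6.30%, 0.0282% and 4.54% of all tested genes in the 3 comparisons. The medians of the list were 0.34, -0.27 and -0.03.

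Among 11 regulators, 2 were called higher and 1 lower in HFD minus ND, where 6.30% of all tested genes were called. Insig2, which holds the SREBP complex in the endoplasmic reticulum, rose by 1.19 ± 0.20 (edgeR adjusted p = 0.00298) and Ppara, a fatty acid sensing nuclear receptor, by 0.70 ± 0.11 (0.00187). Mlxipl, the carbohydrate-responsive factor ChREBP, fell by 0.65 ± 0.11 (0.00284). With MEC1 against vehicle, 0 of 11 were called by edgeR and by limma-voom, and DESeq2 called 3 (Srebf1, Pparg and Insig2). Over all 14172 tested genes, edgeR called 4, limma-voom 2 and DESeq2 389. In edgeR 4 of the 11 had an unadjusted p under 0.05, beside 14.8% of all tested genes. Srebf1, a lipogenic transcription factor, had the smallest p there, at -0.84 ± 0.19 (0.101), and Insig2 was -0.62 ± 0.19 (0.171).

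In HFD+MEC1 minus ND, Ppara rose by 0.85 ± 0.11 (edgeR adjusted p = 0.00067), and Srebf1 fell by 1.44 ± 0.19 (0.00128) from 255 to 332 CPM in ND to 67.4 to 138 CPM. Mlxipl fell by 0.51 ± 0.11 (0.0135). Of all tested genes, 4.54% were called in this comparison. The regulators' medians were 0.17, -0.08 and -0.14. All 6 calls named for the regulators held without each of the 8 libraries compared.

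**Figure D5:**
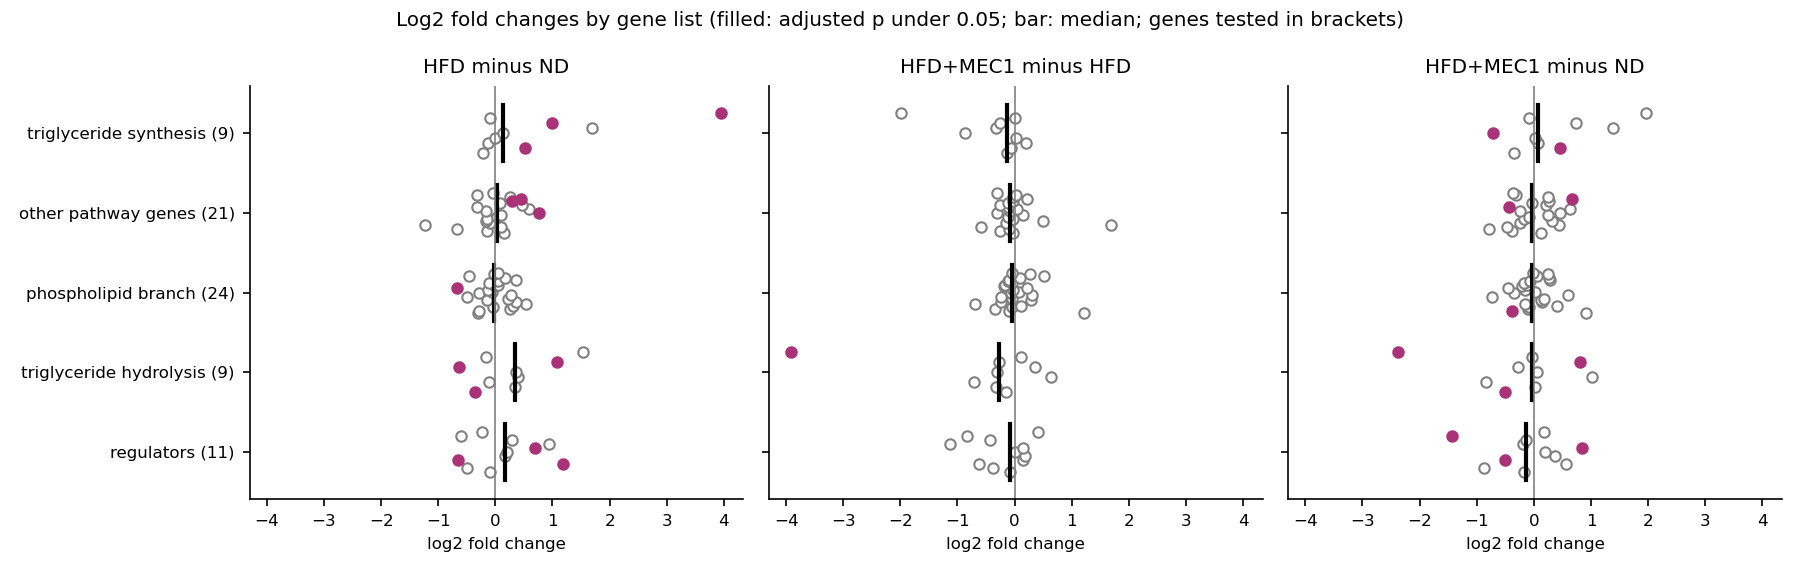
Log2 fold changes of every tested gene of the 5 lists in the 3 comparisons (points), with the list median as a line and called genes filled. Medians lie between -0.27 and 0.34, beside 0 to 0.01 for all tested genes, and Mogat1 at 3.95 and Pnpla3 at -3.91 are the farthest points. Mogat1 in ND and Pnpla3 in HFD+MEC1 were at low levels.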

How the data were processed

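Liver RNA of 12 mouse samples, 4 per group, was grouped by sample title. The authors deposited whole-number read counts per gene symbol, 1 table per sample, and 1 table of RPKM values, per the file headers. STAR 2.7.10a and mm10 are named in the submitters' processing notes; the counting tool, annotation and strand use are not given in the sources used here. Among low counts 70.1 to 74.7% were even, so counts may be read ends. The RPKM table held 12 further columns, not analysed here.

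Counts were filtered with filterByExpr, which kept 14172 genes with 99.98% of counts, and scaled by TMM. A robust quasi-likelihood model of edgeR 4.0.16 (R 4.3.3) was fitted to all 12 libraries, and p-values, two-sided, were adjusted by Benjamini-Hochberg over all tested genes. SE is the fold change divided by the square root of F. Log2 CPM used a prior count of 2. Replicates differed beyond counting error, the lowest chi-square per gene between 2 of them being 36.4. On simulated data for HFD minus ND with 13993 genes, the test recovered 63% of 100 genes changed by 1 log2 unit and 91.9% of 99 changed by 2.

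The genes and lists were chosen with earlier results of these data known. All 10 genes are named, as are called genes of other lists (at most 4 per direction and comparison by smallest adjusted p, or, where none was called, the 2 with the smallest p as values), and the 2 genes most like each member by Pearson's r. Alternatives were DESeq2 1.42.0, limma-voom and limma on log2(RPKM + 0.1) or log2(RPKM + 1) (limma 3.58.1), other scaling, no filter, only the 2 groups compared, the replicate number as a block, and leaving out each library; for the phospholipid, hydrolysis and regulator lists the last and the other count tests were chosen after seeing the data. Coding identity came from the longest open reading frames of GENCODE M21 transcripts, aligned with Biopython 1.88.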

Additional observations from a re-analysis of the deposited data

Results flagged for a closer look

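Of 30 groups of 4 libraries checked (10 genes in 3 groups), 1 held a library far from the others: Mogat2 in HFD+MEC1 replicate 3, at 0.154 CPM from 6 counts, where the other 3 libraries had 0. The rule marks about 1 in 20 groups of normally spread values. With 3 libraries at 0 any other value is marked, so that rate does not apply to this group.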

How the results depend on the processing

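Over 9 settings other than leaving out a library, 225 of 243 values for the 9 tested genes kept their direction and side of the threshold, 3 fell short of it, 9 newly passed it and 6 changed sign. The sign changes were Dgat2 in HFD minus ND (0.11 with library totals, 0.09 with both RPKM scales), Lpin3 in HFD minus ND (0.03 with library totals), and Dgat2 (-0.02) and Lpin3 (-0.06) in HFD+MEC1 minus HFD with library totals. Library totals moved the median of all genes by 0.12 in HFD minus ND and put 79.5% of called genes higher, against 53.2% with TMM; the cause of the other differences was not tested. The count of called genes of the set in HFD+MEC1 minus HFD went from 0 to 1 with DESeq2 and with no filter. In HFD+MEC1 minus ND it went from 2 to 1 with library totals and both RPKM scales, and to 5 with DESeq2. Of the 21 other pathway genes, calls in HFD minus ND went from 3 to 7 with DESeq2 and 5 with only the 2 groups; DESeq2 gave 1 in HFD+MEC1 minus HFD and 6 in HFD+MEC1 minus ND, where log2(RPKM + 1) gave 1. Over all genes DESeq2 called 1388, 389 and 1155, against 893, 4 and 644.

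Leaving out single libraries gave 2 to 3, 0 to 1 and 0 to 4 called genes of the set for diet, for MEC1 against vehicle and for HFD+MEC1 minus ND, and 1 to 2, 0 to 2 and 2 to 3 of the other pathway genes. Over all genes, calls in HFD+MEC1 minus HFD went from 4 to 460 without HFD+MEC1 replicate 1, and to 72 without HFD replicate 4. They went to 0 without ND replicate 1 or 4, HFD replicate 1 or 3, or HFD+MEC1 replicate 2, 3 or 4. Signs changed for Dgat2 (-0.08 to 0.04, -0.01 to 0.09 and -0.05 to 0.08 in the 3 comparisons), Lpin3 (-0.22 to 0.03 in HFD minus ND, -0.13 to 0.13 in HFD+MEC1 minus HFD), and in HFD+MEC1 minus HFD Agpat3 (-0.11 to 0.01) and Lpin1 (-1.06 to 0.03).

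Equal replicate numbers did not pair the libraries: deviations of 12 same-numbered pairs had r of -0.094 to 0.133, 1 over 0.1, and a library was most like its own number in 8 of 24 cases. With the number as a replicate block, calls of the set went from 0 to 1 in HFD+MEC1 minus HFD (Gpam, adjusted p 0.0449) and from 2 to 4 in HFD+MEC1 minus ND (with Mogat1, 0.0248, and Agpat2, 0.0495). Depth limits Mogat2, Mogat1 in ND, and Pnpla3 in HFD+MEC1.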
